A study of Mus musculus with 8 samples.

Results

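The 10 genes described here encode proteins that hold and shape chromosomes in meiosis, and 1 protein that acts on RNA in the same cells. They were chosen by name, with earlier results of these data known. They include the meiosis-specific cohesin subunits Smc1b, Stag3 and Rec8, and the chromosome axis genes Sycp2, Sycp3 and Hormad1. The others are the synaptonemal complex genes Sycp1, Syce1 and Syce2, and Meioc. All 10 were found among the 32780 genes that have a transcript in the deposited tables, and all 10 were among the 15097 genes that passed the filter on low counts. That filter keeps a gene that is high in either group, so a gene can pass on its day 0 level alone.

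The series compared day 10 of differentiation with day 0 in TC1, a line of mouse embryonic stem cells, by sequencing total RNA after removal of ribosomal RNA. The day 10 group holds 4 libraries of cells labelled as differentiated, and the day 0 group holds 4 libraries of undifferentiated embryonic stem cells labelled as control. Both groups carry the same wild-type genotype, and the labels name no other agent and no target cell type. The labels do not say whether libraries of 1 day were grown as separate cultures. The p-values therefore set the difference between the days against the spread among these libraries of a day, which may be only technical. Day and batch cannot be told apart if they ran together.

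Cohesin is a ring of proteins that holds sister chromatids together, built from an SMC1 and an SMC3 subunit, a kleisin that closes the ring and a STAG subunit that sits on it. Germ cells that enter meiosis replace several of these subunits with meiotic paralogues, which organise the chromosomes into loops along a protein axis. Homologous chromosomes are then zipped together along their axes by the synaptonemal complex, whose lateral elements are the axes, whose transverse filaments bridge the gap and whose central element joins the filaments in the middle. These genes are known for their use in spermatocytes and oocytes, and mouse embryonic stem cells are known to transcribe some of them without entering meiosis.

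Promoters of germ-line genes are known to be bound in mouse embryonic stem cells and somatic cells by a Polycomb-type repressor that contains E2F6, which reads GCGGGA, and MGA with MAX, which read the E-box CACGTG. Both motifs were therefore searched on both strands in RefSeq promoters of build GRCm38.p6, each running from 250 bases before to 50 bases after a gene's start, and no match in a member overlapped another. Those of Hormad1, Stag3 and Smc1b, which hold matches, and of Syce1 and Sycp2, which are the members without any, are shown so that the sequences can be read beside the values. Of the 2 without a match, Syce1 had the largest fitted change among members with counts at day 10 and Sycp2 the smallest of all. Each is given 5′ to 3′ on the gene's strand, with the 2 motifs in capitals and TCCCGC marking GCGGGA on the other strand. The Hormad1 window is chr3:95559427-95559726 on the plus strand, that of Stag3 chr5:138280259-138280558 on the plus strand, that of Smc1b chr15:85131908-85132207 on the minus strand, that of Syce1 chr7:140787805-140788104 on the minus strand and that of Sycp2 chr2:178407609-178407908 on the minus strand.
Hormad1: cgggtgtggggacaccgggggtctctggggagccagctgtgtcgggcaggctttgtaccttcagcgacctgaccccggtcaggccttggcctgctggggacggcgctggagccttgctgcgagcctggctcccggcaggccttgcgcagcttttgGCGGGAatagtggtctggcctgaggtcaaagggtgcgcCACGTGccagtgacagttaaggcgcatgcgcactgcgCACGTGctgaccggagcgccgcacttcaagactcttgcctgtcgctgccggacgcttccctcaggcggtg
Stag3: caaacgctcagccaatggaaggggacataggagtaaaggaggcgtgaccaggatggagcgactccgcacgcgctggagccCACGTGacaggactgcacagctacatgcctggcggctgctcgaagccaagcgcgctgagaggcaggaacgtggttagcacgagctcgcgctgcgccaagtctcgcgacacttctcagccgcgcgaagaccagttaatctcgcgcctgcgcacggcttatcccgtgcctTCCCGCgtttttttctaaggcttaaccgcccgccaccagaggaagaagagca
Smc1b: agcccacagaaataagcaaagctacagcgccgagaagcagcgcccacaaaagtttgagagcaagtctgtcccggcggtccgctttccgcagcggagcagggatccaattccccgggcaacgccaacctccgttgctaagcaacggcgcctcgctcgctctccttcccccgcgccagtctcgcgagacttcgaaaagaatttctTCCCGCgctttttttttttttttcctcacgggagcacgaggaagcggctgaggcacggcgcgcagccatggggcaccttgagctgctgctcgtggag
Syce1: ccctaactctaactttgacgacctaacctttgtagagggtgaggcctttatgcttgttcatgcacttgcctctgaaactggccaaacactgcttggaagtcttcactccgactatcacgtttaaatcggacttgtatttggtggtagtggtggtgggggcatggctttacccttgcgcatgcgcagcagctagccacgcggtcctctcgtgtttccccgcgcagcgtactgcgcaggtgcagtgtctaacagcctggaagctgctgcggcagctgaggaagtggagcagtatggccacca
Sycp2: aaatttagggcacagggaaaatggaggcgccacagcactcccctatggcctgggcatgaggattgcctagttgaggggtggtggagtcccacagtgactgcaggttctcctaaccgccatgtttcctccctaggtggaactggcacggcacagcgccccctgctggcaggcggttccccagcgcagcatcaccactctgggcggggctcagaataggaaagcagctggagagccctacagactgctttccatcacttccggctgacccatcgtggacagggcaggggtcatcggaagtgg

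The Hormad1 promoter held GCGGGA 95 bases and CACGTG 57 and 20 bases before the start, counted to the first base of the match. In Stag3 the E2F-type motif lay 2 bases and the E-box 170 bases before the start, and in Smc1b the E2F-type motif lay 47 bases before it. All 10 members had a RefSeq promoter, 12 in all, since Hormad1 and Syce2 have 2 starts each. GCGGGA was present in a promoter of 8 of the 10 members, and CACGTG in a promoter of 5. Counted per gene in the same way, 22.05% of 27025 genes held GCGGGA and 8.09% held CACGTG, and of all 32851 promoters of that length 19.98% and 7.15% did. The 12 promoters were also rich in CpG dinucleotides, with a median ratio of observed to expected CpG of 0.714 against 0.384 over all promoters. Among the 11765 promoters with a ratio of at least 0.6, which 9 of the 10 members have, 43.1% held GCGGGA and 11.3% held CACGTG. These shares are counted per promoter, and so counted 10 of the members' 12 promoters held GCGGGA and 6 held CACGTG. Sycp2 had the lowest ratio of the 10 members, 0.363. Matches of letters are a description of these windows and do not show binding.

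All 10 members were lower at day 10. Every member passed the test over all genes (edgeR's quasi-likelihood test on estimated counts, Benjamini-Hochberg adjusted p under 0.05), which called 39.4% of the 15097 tested genes lower and 42.7% higher. All 10 also passed a test for a change over 2-fold (edgeR's glmTreat), which called 17.3% of tested genes lower and 24.1% higher. In CPM, counts scaled to the library total with TMM factors, no member's day 10 libraries overlapped its day 0 libraries, as was so for 37.2% of tested genes in this direction. On counts, a log2 change under -3, a cut outside the planned tests, was reached by 9 of the 10 members and by 3.51% of tested genes. Log2 changes on TPM were taken after a constant, given below for Sycp2, was added to each value, unless another constant is named. Such a constant makes the changes of genes with low TPM smaller. So taken, Stag3 (-2.83), Rec8 (-2.44), Sycp1 (-2.78), Syce2 (-2.86), Meioc (-2.94) and Sycp2 (-0.58) did not reach the cut. With a smaller constant, Sycp1 (-3.75) and Meioc (-3.40) reached it, and Stag3 (-2.88), Rec8 (-2.97), Syce2 (-2.90) and Sycp2 (-0.77) did not. The share of all tested genes under that cut was not counted on TPM. The median log2 change, day 10 over day 0, was -4.22 over the members and 0.06 over all tested genes, and on TPM -2.90 over the members and 0.43 over all tested genes. The members' median, like those of the lists below, was the same with genes at 0 counts set to their bound.

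**Figure D1:**
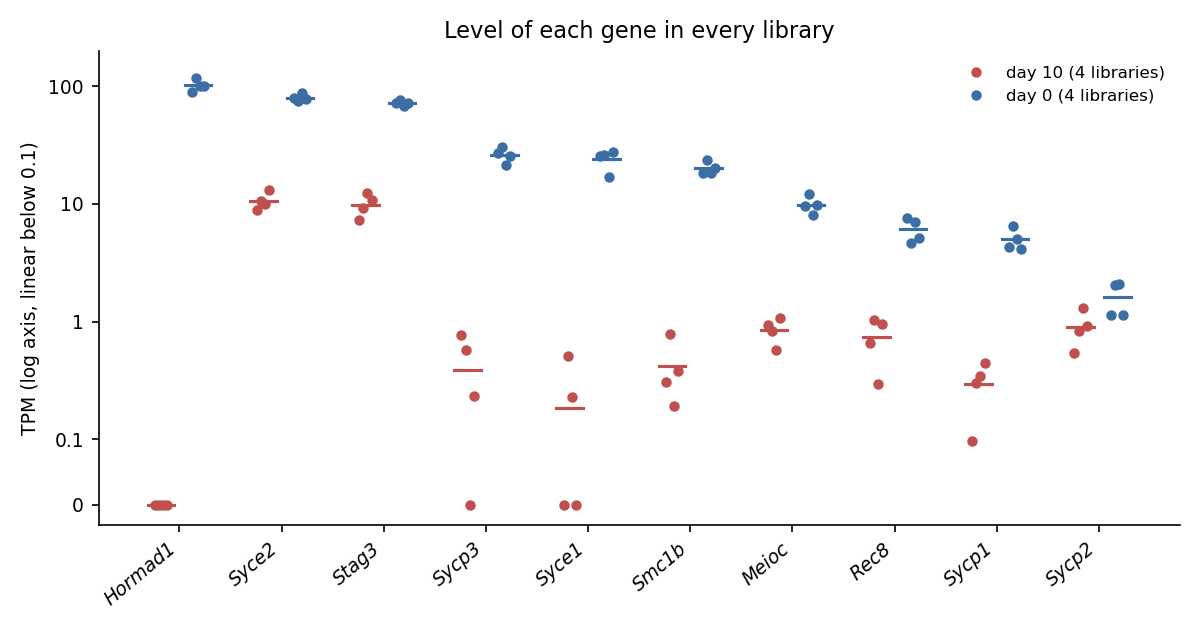
Level of each gene in TPM (scaled for transcript length; log axis that turns linear below 0.1) in every library, day 10 left of day 0 within each gene; points are libraries and lines are means of 4. The 4 day 10 libraries lie below the 4 day 0 libraries for every gene except Sycp2, where they overlap on this scale, and Hormad1 is at 0 in all 4 day 10 libraries.

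TPM values are scaled for transcript length and so allow levels of different genes to be set beside each other. Summed over the 10 genes, the TPM level was 24.3 ± 3.53 at day 10 and 347 ± 17.95 at day 0 (SD, n = 4 each). The day 0 order was led by Hormad1 at 102 ± 11.3 TPM, followed by Syce2 at 79.9 ± 5.41 TPM and Stag3 at 71.9 ± 3.28 TPM. These 3 genes held 73.1% of the members' summed TPM at day 0, and Hormad1 stood above 91.6% of all genes detected at that day.

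Below them at day 0 came Sycp3 at 26.2 ± 3.84 TPM, Syce1 at 24.2 ± 4.81 TPM and Smc1b at 20.2 ± 2.43 TPM. Meioc followed at 9.88 ± 1.65 TPM, Rec8 at 6.12 ± 1.42 TPM, Sycp1 at 4.998 ± 1.06 TPM and Sycp2 at 1.61 ± 0.540 TPM. Among neighbours in the day 0 order, the libraries of Syce2 and Stag3, Sycp3 and Syce1, Syce1 and Smc1b, and Rec8 and Sycp1 overlapped, and the other neighbours were apart. Sycp2, the lowest, stood above 42.7% of the genes detected at day 0, so the 10 RNAs did not share 1 common level there.

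At day 10 the order was another one. Syce2 led at 10.7 ± 1.83 TPM and Stag3 came next at 9.87 ± 2.13 TPM, with overlapping libraries. The other 8 genes had means at or below Sycp2's 0.899 ± 0.316 TPM, and each neighbour from there down to Syce1 overlapped the next. Syce2 and Stag3 together held 84.5% of the members' summed TPM at day 10, while the highest 2 genes of day 0 held 52.4% at that day. In bulk RNA, fewer cells with a transcript and less transcript per cell cannot be told apart.

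The cohesin subunits lost most of their RNA, to different degrees. Smc1b encodes the meiotic SMC1, which pairs with SMC3. It had 0.589, 0.926, 0.365 and 0.729 CPM in day 10 libraries 1 to 4, against 45.8, 57.8, 48.5 and 53.2 CPM in day 0 libraries 1 to 4. Every day 10 library was under 1 CPM and every day 0 library at 45.8 CPM or more, with 1.27% of the day 0 mean left at day 10. The log2 change was -6.25 ± 0.18 (SE; edgeR's quasi-likelihood test, adjusted p = 7.89e-13).

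Stag3 encodes the meiotic STAG subunit, which mouse germ cells need to build axes. It had 8.39, 10.3, 10.2 and 9.81 CPM at day 10, against 100.7, 108.7, 104.2 and 114.7 CPM at day 0. The 4 libraries of each day lay close together, and 9.03% of the day 0 mean was left. The log2 change was -3.47 ± 0.09 (edgeR, adjusted p = 3.10e-13), and the 595 counts summed over the day 10 libraries made up most of the 1140 that all 10 genes had there.

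Rec8 encodes the meiotic kleisin, the subunit whose stepwise cleavage lets homologues and then sister chromatids part. It had 0.662, 0.679, 0.292 and 0.841 CPM at day 10, against 8.29, 5.85, 6.48 and 7.004 CPM at day 0. It was the least abundant of the 3 cohesin subunits at day 0 on the TPM scale, and its day 10 libraries rest on 4 to 15 counts each. Its log2 change came to -3.43 ± 0.28 (edgeR, adjusted p = 4.24e-08), and 8.95% of the day 0 mean CPM was left.

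Each meiotic subunit was also set beside the paralogues that other cells use, as a share of their summed TPM. Smc1b made up 0.277%, 0.632%, 0.145% and 0.268% of Smc1a and Smc1b together at day 10, against 16.2%, 20.3%, 18.9% and 21.7% at day 0. Stag3 made up 1.23%, 1.36%, 2.07% and 1.69% of the 3 Stag genes at day 10, against 19.96%, 18.3%, 17.2% and 16.9% at day 0. Every day 10 share was below every day 0 share in both sets, with day 0 means of 19.3% for Smc1b and 18.1% for Stag3.

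Rec8 made up 0.543%, 0.791%, 0.234% and 0.716% of Rad21, Rad21l and Rec8 at day 10, against 4.33%, 2.43%, 4.06% and 3.37% at day 0. Rad21l, the other meiotic kleisin, had 1 count in all over the day 10 libraries and 3 over the day 0 libraries and was too low to test. Day 10 minus day 0, the mean share differed by -18.9 percentage points for Smc1b, -16.5 for Stag3 and -2.97 for Rec8, with no overlap of libraries in any. Each difference gave p = 0.0286 in a two-sided exact permutation test over 70 assignments of the libraries, the smallest p that 4 against 4 allows, and 0.0286 after adjustment over the 3 shares. The size depended on the unit: as a share of estimated counts the Rec8 difference was -1.48 points, and over protein-coding transcripts alone the Smc1b difference was -31.6 points.

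**Figure D2:**
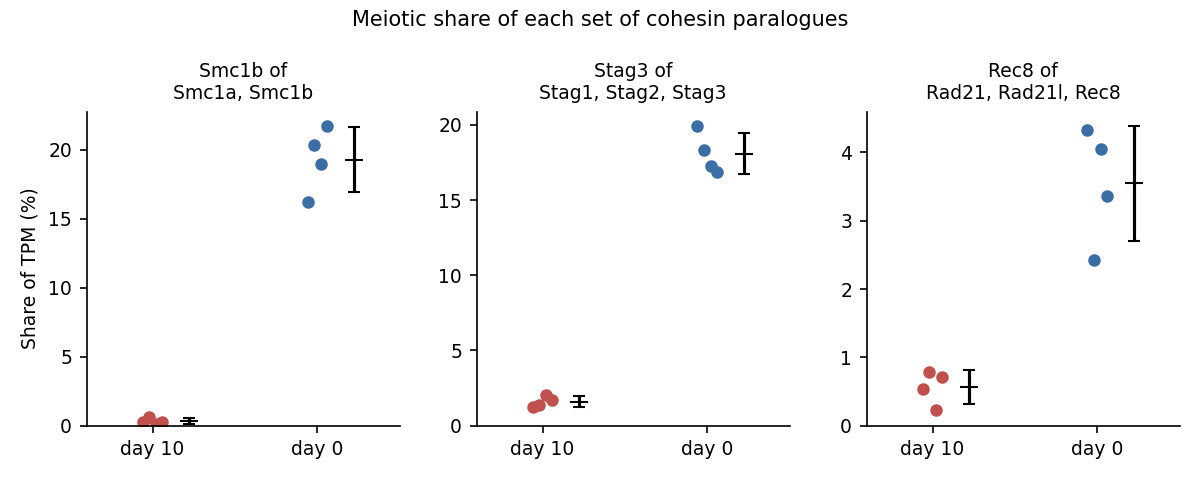
Share (%) that the meiotic subunit holds of the summed TPM of its paralogues, day 10 left of day 0; points are the 4 libraries of a day, and the cross bar and whiskers beside them are the mean ± SD. The day 10 means are 0.330%, 1.59% and 0.571% for Smc1b, Stag3 and Rec8, and the day 0 means are 19.3%, 18.1% and 3.54%.

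The ring subunits used outside meiosis moved less than any of the 10 members on counts. Smc3, shared by both kinds of ring, was at 207 to 255 CPM in day 10 libraries and 441 to 552 CPM in day 0 libraries (log2 change -1.09, edgeR adjusted p = 2.08e-08), and Rad21, the mitotic kleisin, had a log2 change of -0.76 (adjusted p = 2.05e-08). Both were lower under every scaling tried, with Smc3 at -0.31 on TPM. Smc1a was at 118 ± 11.5 CPM at day 10 and 151 ± 13.03 CPM at day 0 (log2 change -0.35, edgeR adjusted p = 0.00118), but on the TPM scale its log2 change was 0.58, and with transcript lengths as an offset it was 0.19. Stag1 had a log2 change of 0.34 on counts (edgeR, adjusted p = 6.15e-05), with 0.87 on TPM and -0.12 with the length trend removed. Stag2 had 0.09 and did not pass on counts (edgeR, adjusted p = 0.162), with 0.93 on TPM. On TPM, Stag1 and Stag2 thus changed by more, in the other direction, than Sycp2 at -0.58. The 10 meiotic genes were lower under each of the scalings.

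**Figure D3:**
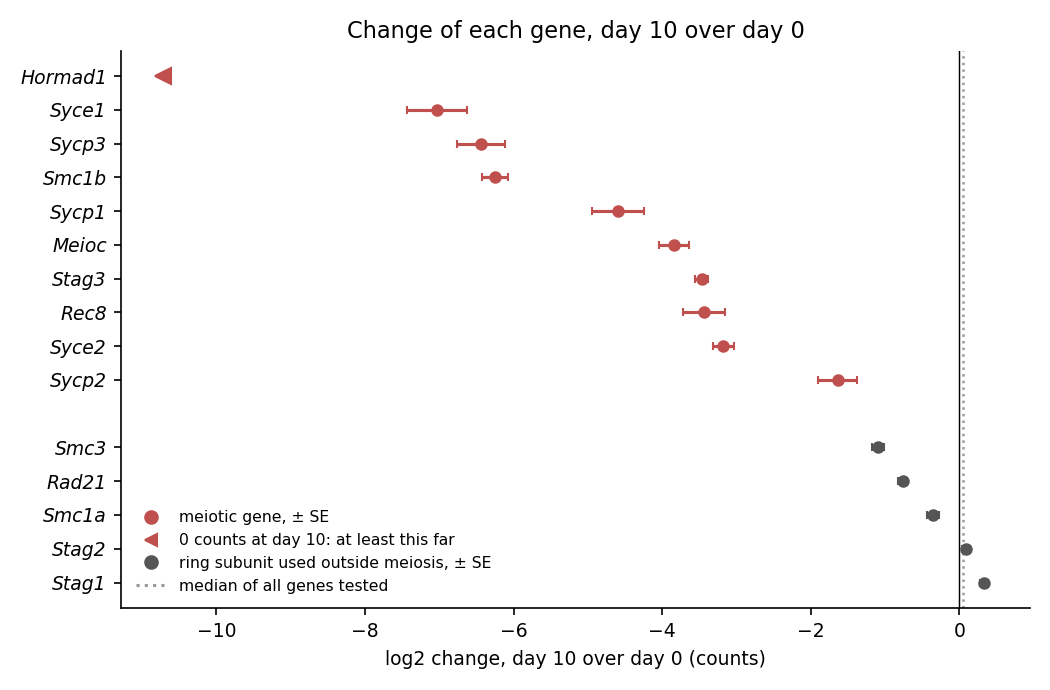
Log2 change, day 10 over day 0, from edgeR on gene counts with its SE, for the 10 meiotic genes and the 5 cohesin ring subunits used outside meiosis; the triangle for Hormad1 is the bound of -10.72 set by 0 counts at day 10, and the dotted line is the median of all tested genes. The meiotic genes run down from -1.64 for Sycp2, while the ring subunits lie between -1.09 and 0.34, where Smc1a (0.58 on TPM) and Stag1 (-0.12 with the length trend removed) change sign with the scaling.

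The axis genes held the largest and the smallest change of the 10. Hormad1 encodes a HORMA-domain protein that marks unsynapsed axes and is needed for making DNA breaks and pairing homologues. It had 0 counts in each of the 4 day 10 libraries, against 71.5, 89.4, 83.9 and 83.3 CPM at day 0, or 4328 counts in all. Against a floor of 3 counts over the day 10 group, 0.0489 CPM, it was at least 1689-fold lower at day 10 (edgeR's quasi-likelihood test, adjusted p = 3.19e-12). Of the 8934 genes that averaged at least 10 CPM at day 0, 10 (0.112%) had no count in any day 10 library, and Hormad1 was 1 of them. Its annotated transcripts share 41.8 to 47.1% of their 31-base words with the genes Gm15529 and Gm7167, which have no matched transcript in the tables and were not analysed here, so part of its day 0 count is uncertain in origin.

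Sycp3 encodes the main building block of the lateral elements. It had 0.368, 0.247, 0 and 0.112 CPM at day 10, against 17.0, 18.04, 14.0 and 16.5 CPM at day 0. Day 10 library 3 had no count, and the 4 day 10 libraries held 11 counts together, against 861 at day 0. Day 10 over day 0, its log2 change was -6.44 ± 0.32 (edgeR, adjusted p = 2.24e-10). Of its exonic bases, 52.2% also lie in exons of Chpt1 on the opposite strand, so reads there cannot be told apart without strand. Chpt1, a phospholipid synthesis enzyme, was at 31.2 ± 5.06 CPM at day 10 and 17.0 ± 1.99 CPM at day 0, the other direction to Sycp3.

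Sycp2 encodes the lateral element protein that binds SYCP3. It had 0.957, 1.11, 1.46 and 1.68 CPM at day 10, against 4.06, 5.36, 3.62 and 3.34 CPM at day 0. The highest day 10 library was still below the lowest day 0 library, and 31.8% of the day 0 mean CPM was left, the largest share of the 10 genes. The log2 change was -1.64 ± 0.27 (edgeR, adjusted p = 5.73e-05; 0.0103 for over 2-fold). On the TPM scale the libraries overlapped, with 0.545 to 1.31 TPM at day 10 and 1.14 to 2.09 TPM at day 0. The log2 change of TPM + 0.5 was -0.58 (limma, adjusted p = 0.0387), which is -1.01 once the all-gene median of that scale is taken off.

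The synaptonemal complex genes outside the axis were low at day 10, apart from Syce2. Sycp1 encodes the transverse filament protein. It had 0.147, 0.123, 0.511 and 0.673 CPM at day 10, against 8.39, 11.4, 9.35 and 7.79 CPM at day 0. Day 10 libraries 3 and 4 held 7 and 12 counts, and libraries 1 and 2 held 2 each, the widest relative spread among genes with a count in every library. The log2 change was -4.60 ± 0.35 (edgeR, adjusted p = 2.10e-08). Its coding transcripts Sycp1-201 and Sycp1-202 share 13.4% and 14.5% of their 31-base words with the pseudogene Sycp1-ps1, not analysed here.

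Syce1 encodes a central element protein that binds SYCP1. It had 0, 0.309, 0.146 and 0 CPM at day 10, against 16.8, 17.97, 12.5 and 16.8 CPM at day 0. The 2 day 10 libraries with a signal held 5 and 2 counts, so 0.711% of the day 0 mean was left. Its log2 change was -7.02 ± 0.40 (edgeR, adjusted p = 2.13e-09), and without day 10 library 2 it was -8.23.

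Syce2 encodes the central element protein that forms fibres with TEX12. It had 3.39, 3.70, 3.87 and 4.88 CPM at day 10, against 34.9, 30.7, 41.7 and 37.0 CPM at day 0. It was detected in every day 10 library, with 46 to 87 counts, and 10.97% of the day 0 mean was left. Its log2 change came to -3.18 ± 0.14 (edgeR, adjusted p = 6.53e-11). Syce1 and Syce2, which work in the same layer of the complex, thus kept 0.711% and 10.97% of their day 0 mean CPM.

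Meioc is no structural gene: its protein works with the RNA helicase YTHDC2 on transcripts in germ cells that enter and pass through meiotic prophase. It had 1.03, 1.48, 1.24 and 2.35 CPM at day 10, against 20.6, 24.7, 21.1 and 23.7 CPM at day 0. The groups lay far apart, and day 10 library 4 was the highest of its group. On the log2 scale Meioc changed by -3.84 ± 0.20 (edgeR, adjusted p = 3.28e-10). Ythdc2, its partner, had a log2 change of -0.59 on counts (edgeR, adjusted p = 2.49e-06) and 0.28 on TPM, and was not called with transcript lengths as an offset (-0.11, adjusted p = 0.285). It is named here after its values were seen.

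The members were also read transcript by transcript, since the tables give 1 value per annotated transcript. Of 39 annotated transcripts of the 10 genes, 22 passed the filter on low counts, 21 were lower and none higher at day 10 (edgeR's quasi-likelihood test on transcripts), where 23.8% of the 41067 tested transcripts were called lower and 26.8% higher. The remaining tested transcript, Stag3-209, had a log2 change of -2.53 ± 0.93 and did not pass (adjusted p = 0.0504). The authors' quantification divides reads that match more than 1 transcript, and the test does not include that source of error.

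Stag3 was assigned to several models whose balance was not the same on both days. Stag3-201, a full-length coding model of 34 exons, had 0.671 ± 0.788 TPM at day 10 and 15.8 ± 3.84 TPM at day 0 (log2 change -4.99 ± 1.03, edgeR adjusted p = 0.00394), and was near 0 in day 10 libraries 1 and 2. Stag3-208, a short coding model of 763 bases and 6 exons, had 4.56 ± 2.30 TPM at day 10 and 16.8 ± 5.87 TPM at day 0 (log2 change -2.29 ± 0.46, edgeR adjusted p = 0.00306). It held 46.2% of the gene's TPM at day 10 and 23.3% at day 0, while Stag3-204, also a short coding model, held 12.1% at day 10 and 27.6% at day 0. TPM is scaled for length, and estimated counts were divided otherwise. At day 10 the most counts went to Stag3-203, a retained-intron model, with 257 at day 10 and 1511 at day 0. Stag3-208 had 80.6 counts at day 10 and 322 at day 0. Of the gene's TPM, Stag3-203 held 20.2% at day 10 and 14.3% at day 0, with overlapping libraries. The shares above are of the gene's mean TPM, and those of the next 2 groupings are means of the shares in each library. The 3 coding models under 1000 bases together held 58.2% ± 11.6 at day 10 and 53.4% ± 3.06 at day 0, with overlapping libraries. The pair of 34-exon coding models together held 13.7% ± 1.596 of the gene's TPM at day 10 and 26.0% ± 6.25 at day 0, with no overlap of libraries. Both groupings were chosen after values were seen, so their differences are given with no test. Of the 31-base words of Stag3-208, 3.14% also occur in other genes, 447 in all. Its day 10 libraries held 9.54 to 30.2 estimated counts each, and how many came from those other genes was not tested.

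For Syce2 the coding model Syce2-204 held 48.0% of the gene's TPM at day 10 and 65.7% at day 0, with 5.13 ± 1.54 and 52.5 ± 5.77 TPM (log2 change -3.78 ± 0.25). Library by library, that share was 30.6 to 68.9% at day 10 and 57.2 to 70.8% at day 0, so it overlapped. A model annotated for nonsense-mediated decay, Syce2-201, held 29.1% at day 10 and 23.4% at day 0, also with overlap and with 0 in day 10 library 1. The coding model Syce2-202 had the smallest log2 change of any called member transcript, -1.70 ± 0.39. It held 14.5% of the gene's TPM at day 10 and 4.74% at day 0, and was the only Syce2 model whose share did not overlap, with 8.91 to 22.1% in day 10 libraries and 3.66 to 5.63% in day 0 libraries. For Meioc, the full-length Meioc-201 had 0.688 ± 0.283 TPM at day 10 and 6.71 ± 0.399 TPM at day 0, while the shorter Meioc-203 held 30.6% of the gene's TPM at day 0 and fell to 0.472 estimated counts over all day 10 libraries, against 163 at day 0.

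Most of the Sycp2 counts left at day 10 were assigned to its 44-exon coding model, Sycp2-201, with 56.4 estimated counts over the 4 libraries, against 19.8, 3.41 and 1.33 for the other 3 models. Sycp2-201 had 0.331 ± 0.1005 TPM at day 10 and 1.01 ± 0.196 TPM at day 0, with no overlap of libraries (log2 change -2.03 ± 0.33, edgeR adjusted p = 9.77e-04). Its share of the gene's TPM was 36.9% at day 10 and 62.7% at day 0, but overlapped between libraries (25.5 to 46.6% at day 10, 39.2 to 100% at day 0), and the other Sycp2 models had under 20 counts each over either day. Smc1b, in contrast, was assigned to 1 coding model at day 0, Smc1b-201, which held all of its 2716 counts there. Hormad1-201 and Hormad1-202 held 69.9% and 19.3% of Hormad1's TPM at day 0.

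**Figure D4:**
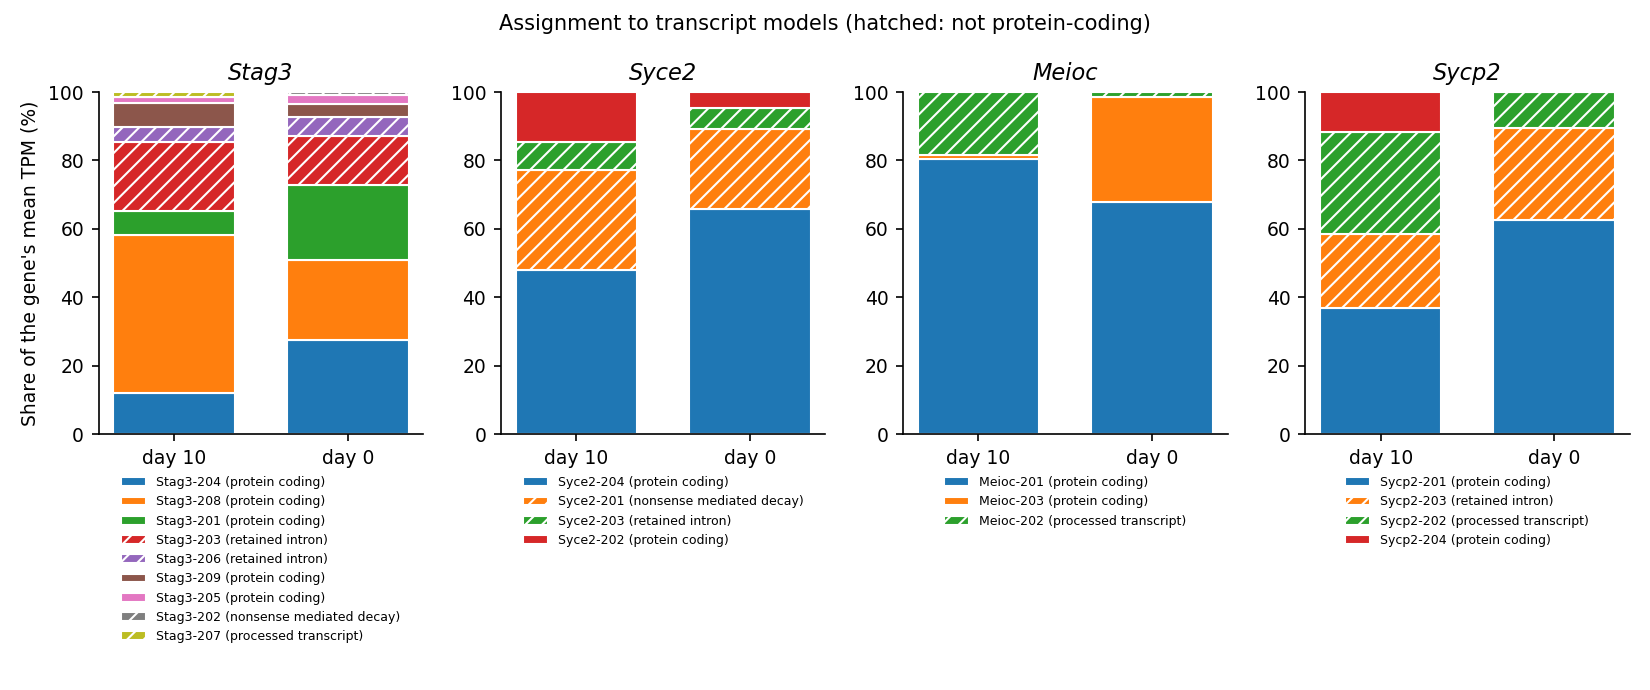
Share (%) of each gene's mean TPM that its annotated transcripts hold, day 10 left of day 0, for the 4 genes whose balance of models is described; hatched parts are models not annotated as protein-coding. Stag3-208 takes 46.2% at day 10 and 23.3% at day 0, without overlap of libraries, and Sycp2-201 takes 36.9% at day 10 and 62.7% at day 0, with overlap.

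Other genes of the same processes were counted from lists that do not include the 10 and were also chosen with earlier results of these data known. Of 15 further axis, synaptonemal complex and telomere attachment genes, 9 had counts enough to test and all 9 were lower on counts and on TPM. Their median log2 change was -4.49 on counts and -1.99 on TPM with the constant added before the log. That constant makes the changes of genes with low TPM smaller. With transcript lengths as an offset to the counts, the median was -4.47. The gene 4930447C04Rik, also known as Six6os1 and a partner of SYCE1 in the central element, was at 6.59 ± 2.44 CPM at day 10 and 184 ± 10.0 CPM at day 0 (log2 change -4.78, edgeR adjusted p = 1.64e-09). Trip13, the ATPase that removes HORMAD1 from synapsed axes, was at 43.3 ± 2.60 CPM at day 10 and 102 ± 4.65 CPM at day 0 (log2 change -1.24, adjusted p = 7.57e-10). Sun1, a nuclear envelope protein that anchors telomeres, had a log2 change of -0.88 (adjusted p = 2.35e-08). Trip13 and Sun1 are also used outside meiosis.

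Of 25 genes of meiotic recombination, 19 were tested, of which 16 were lower, 1 higher and 2 not called, with a median log2 change of -2.21. Hsf2bp, which brings BRCA2 to meiotic breaks, was at 0.156 ± 0.122 CPM at day 10 and 32.6 ± 2.51 CPM at day 0 (log2 change -7.71, edgeR adjusted p = 6.42e-12), and Tex11, an X-linked crossover gene, had a log2 change of -6.53 (adjusted p = 6.37e-12). Mlh3, the crossover endonuclease subunit, had a log2 change of -1.81 (adjusted p = 8.93e-11). The 1 higher gene was Msh5, at 2.72 ± 0.564 CPM at day 10 and 1.66 ± 0.141 CPM at day 0 (log2 change 0.71, adjusted p = 0.0180), so low at both days. Its call was lost with transcript lengths as an offset (log2 change 0.53, edgeR adjusted p = 0.0684), where 17 genes of the list were lower and 0 higher, while on TPM the list again had 16 lower and 1 higher. Mlh3 had a log2 change of -2.49 with the length trend removed.

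The 9 genes of meiotic entry did not move 1 way: 5 were lower, 3 higher and 1 not called on counts, and 4 lower and 4 higher on TPM. Dazl, an RNA-binding protein that licenses germ cells for meiosis, was at 0.115 ± 0.104 CPM at day 10 and 33.3 ± 3.12 CPM at day 0 (log2 change -8.08, edgeR adjusted p = 3.55e-12), and Dmrt1, a regulator of the mitosis to meiosis switch, had a log2 change of -8.02 (adjusted p = 1.78e-10). The 3 retinoic acid receptors of the list split, with Rarg at -3.20 (edgeR, adjusted p = 1.51e-13), Rxra at 2.28 (adjusted p = 1.13e-10) and Rarb, named after its values were seen, at 5.02 (adjusted p = 5.68e-09). The other higher gene, Rbm46, had a log2 change of 4.24 (edgeR, adjusted p = 4.71e-08) and 3.37 on TPM, and is also named after its values were seen. Stra8, the retinoic acid target that starts meiosis, had no count in any day 10 library against 599 counts at day 0 (at least 234-fold lower), while its partner Meiosin (Gm4969) had 72 counts at day 10 and 60 at day 0 and was not called (adjusted p = 0.923). These last 2 genes are named after their values were seen.

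**Figure D5:**
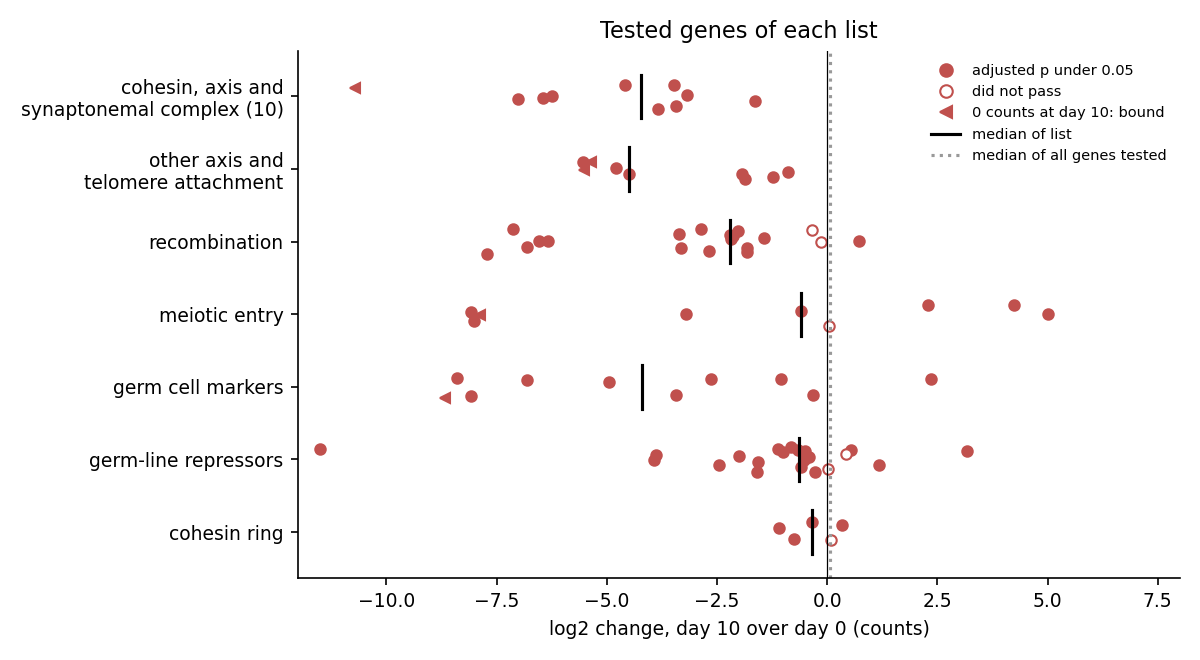
Log2 change, day 10 over day 0, on gene counts for the tested genes of each list; filled points passed at adjusted p under 0.05, triangles are bounds for genes with 0 counts at day 10, black bars are list medians and the dotted line is the median of all tested genes. The 10 members have a median of -4.22 and the further axis genes -4.49 on counts. On TPM, with a constant added before the log, these medians are -2.90 and -1.99. The medians of the meiotic entry list (-0.59 on counts, 0.15 on TPM) and of the cohesin ring (-0.35 on counts, 0.58 on TPM) change sign with the scale.

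A list of 22 genes that bear on the silencing of germ-line promoters held 19 genes of the E2F6 complex, DNA methylation and histone methylation and the 3 Tet genes, which oxidise methylated cytosine and so act against methylation. Of the 19, 15 were lower, 2 higher and 2 not called on counts, and 10 were lower and 4 higher on TPM, with median log2 changes of -0.59 and -0.34. L3mbtl2, a subunit of the E2F6 complex, was at 18.8 ± 0.664 CPM at day 10 and 104 ± 4.396 CPM at day 0 (log2 change -2.46, edgeR adjusted p = 1.07e-12). E2f6 itself had a log2 change of 0.55 (adjusted p = 5.39e-05) and Mga one of -0.67 (adjusted p = 8.76e-07), both named after their values were seen. Mga lost its call on TPM (log2 change -0.14, limma adjusted p = 0.207) and had -1.65 with the length trend removed, and E2f6 had 1.32 over protein-coding transcripts alone. Among DNA methylation genes, Dnmt3l, a cofactor of the de novo methyltransferases, had 2 counts at day 10 and 6378 at day 0. Of the Tet genes, 2 were lower and 1 higher: Tet1 had a log2 change of -3.89 (edgeR, adjusted p = 1.23e-13) and Tet3 one of 3.17 (adjusted p = 8.43e-14). Removing the length trend put Tet3 at 2.21. Methylation and protein binding were not measured in these libraries.

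Markers of the cells also differed between the days, with those of stem cells lower on counts and those of cardiac muscle higher. Their part in the members' change was not tested. Of 8 markers of undifferentiated stem cells, all 8 were lower on counts and 7 on TPM, where Klf4 was the exception (log2 change -0.19 on counts and 0.24 on TPM), and their summed level was 165 to 220 CPM at day 10 and 3347 to 3700 CPM at day 0, with none at 0. Pou5f1, the core pluripotency factor, was at 2.72 ± 0.713 CPM at day 10 and 738 ± 64.5 CPM at day 0. Of 9 cardiac muscle markers, 8 were tested and all 8 were higher, and their summed level was 426 to 670 CPM at day 10 and 51.2 to 61.9 CPM at day 0.

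Of 13 germ cell markers, 10 were tested, of which 9 were lower and 1 higher, and on TPM 8 were lower and 1 higher. The higher gene on counts was Prdm1 (log2 change 2.36, edgeR adjusted p = 1.55e-09). Their summed level was 129 to 193 CPM at day 10 and 288 to 327 CPM at day 0, with 3 of the 13 at 0 counts at day 10 and 1 at day 0. Ddx4, the germ cell RNA helicase, was at 0.243 ± 0.193 CPM at day 10 and 28.5 ± 1.49 CPM at day 0 (log2 change -6.82, edgeR adjusted p = 1.06e-11). Sohlh2, a germ cell transcription factor, had 2 counts at day 10 and 731 at day 0. RNA of germ cell markers was thus present on both days beside that of members, with a lower summed level at day 10. Whether the same cells held both cannot be told from bulk RNA.

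Finally, the genes whose levels ran most like the members' were ranked over the 8 libraries by Pearson correlation with the mean of the members' standardised log2 CPM, among 10466 tested genes of at least 10 CPM at either day. The nearest 5 outside the members were Dhdh, Cebpz, Dkc1, Hells and Ppid, with r between 0.9994 and 0.9998. With 2 groups of 4 this r mostly reflects the difference between the days: 852 of the ranked genes were over 0.99. Dhdh, the nearest, had a mean of 11.6 ± 1.22 CPM at day 10 and was between 70.5 and 79.1 CPM at day 0.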

How the data were processed

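Total RNA was sequenced in 8 libraries, 4 per day, and grouped by the labels. The authors deposited 1 table per library with an estimated count and a TPM value for each of 126126 transcripts, per the file headers. Quantification used kallisto, given as version 1 in the submitters' processing notes, which also name DESeq2. Its transcript reference and genome build were not given in the sources used here. Deposited estimated counts sum to between 13525255 and 17843651 in day 10 libraries, and to between 11242568 and 15808039 in day 0 libraries.

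Transcripts were matched by identifier to GENCODE M21 (93.6% matched; 98.4% of those with equal length), and the unmatched 8134, with 1.15 to 1.23% of counts, were left out. Estimated counts were summed per gene and rounded. R 4.3.3 with edgeR 4.0.16 was used (filterByExpr, TMM, robust quasi-likelihood fit, Benjamini-Hochberg, threshold 0.05), with glmTreat for changes over 2-fold and the same fit on transcripts. Each SE is the size of the log2 change over the root of the F statistic. Alternatives used DESeq2 1.42.0, limma 3.58.1, other scalings and filters, transcript length, the replicate number as a block and each library left out. The 10 members and all lists were chosen with earlier results of these data known. Named genes are the members, 5 ring subunits, from each list up to 3 called genes of smallest p in its main direction and 1 in the other, the 5 most similar genes, and member transcripts with at least 10% of their gene's TPM at either day, of which those that carry a difference are described. Chpt1, Rad21l, Klf4, Ythdc2, Rarb, Rbm46, Stra8, Meiosin (Gm4969), E2f6 and Mga fall outside this rule and are named after their values were seen. Floors cover counting error only, since no molecular identifiers are stated and reads may not be independent molecules. Promoters come from RefSeq, and shared 31-base words and exon overlaps from M21 transcripts. No strand setting is stated, so overlapping genes on opposite strands are uncertain.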

Additional observations from a re-analysis of the deposited data

How the results depend on the processing

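All 230 recomputed differences (the 10 log2 changes and 3 paralogue shares under their alternatives) kept their direction and side of the threshold. For the shares this was fixed in advance when 1 library was left out, since groups without overlap stay apart. All 10 members were called lower under every one of the 20 alternatives to the gene test. Their log2 changes ranged from -3.83 to -2.77 for Stag3, -6.75 to -3.91 for Smc1b, -3.65 to -2.03 for Rec8, -2.07 to -0.45 for Sycp2, -6.95 to -4.31 for Sycp3, -13.3 to -6.68 for Hormad1, -5.15 to -2.20 for Sycp1, -8.23 to -4.41 for Syce1, -3.32 to -2.49 for Syce2 and -4.26 to -2.55 for Meioc. The smallest value was on log2(TPM + 1) for 9 of the 10 and with the length trend removed for Syce2. At a pseudocount of 0.1, Stag3 was at -2.88 and Sycp2 at -0.77, against -3.47 and -1.64 on counts, and the adjusted p of Sycp2 was 0.0473. Syce1 was at -8.23 without day 10 library 2. With the replicate number as a block, 10 members were called lower, and 20 of their transcripts instead of 21. Same-numbered libraries deviated together with r of 0.03 to 0.05, so the numbers were not taken to pair the samples, although each day 10 library correlated best with the day 0 library of its own number, a hint from the data only. Counts of calls moved by less than 1.5 times: genes lower ranged over 4077 to 6603 and member transcripts lower over 20 to 23. Leaving out 1 library at a time gave 5810 to 6076 genes lower (5950 with all 8), 6277 to 6560 higher (6449), 2554 to 2739 lower by over 2-fold (2612) and 21 to 23 member transcripts lower. Of all called genes 52% were higher on counts and 65.8% on TPM, where 4095 were lower and 7863 higher. An alternative added after seeing the data, with protein-coding transcripts only, also called all 10 members lower. Depth limits the values of Hormad1, Syce1, Sycp3 and Sycp1 at day 10, which rest on 0 to 23 counts over 4 libraries.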
